A study of Homo sapiens with 19 samples.

Results

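SOX4, SOX5, SOX6, SOX7, SOX8, SOX9, SOX10, SOX11, SOX18 and SOX21 were followed in whole-transcriptome RNA-seq of H1 cells, an established human embryonic stem cell (hESC) line. These 10 genes were taken by gene symbol, are all protein-coding, and were 10 of the 19 numbered SOX genes and of 33382 genes listed in each of 19 samples. WT H1 cells had 2 samples, and so had each of 5 knockout lines made from them by CRISPR/Cas9 targeting. These lacked SUZ12 (SUZ12-/- H1), EED (EED-/- H1), EZH1 (EZH1-/- H1), EZH2 (EZH2-/- H1) or both methyltransferases (EZH2-/-/EZH1-/- H1, called double knockout below). H1-EED-/-/EED-OE cells, in which endogenous EED is knocked out and a lentiviral EED transgene depends on doxycycline (DOX), had 1 sample with DOX, whose title also names day 28, and single samples 8, 12, 16, 20, 24 and 28 days after withdrawal of DOX. The targeting removed a functional domain of each factor on both alleles, and the 2 samples of a knockout line carry different names in their labels, so their spread includes any difference between clones or cultures. Nothing says which of them came from separate cultures, and the p-values measure only the spread between these samples. EED-/- H1, SUZ12-/- H1 and double knockout cells are called PRC2-null here, since each lacks a part that Polycomb repressive complex 2 (PRC2) cannot do without, whereas EZH1-/- H1 and EZH2-/- H1 cells keep the other methyltransferase and are called PRC2-retaining, together with WT H1 cells.

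SOX proteins bind DNA through an HMG box related to that of the sex-determining factor SRY, and subgroups with similar sequence often act in the same cells. SOX2, of the SOXB1 subgroup, is a core factor of pluripotent cells, whereas most other members are known from particular lineages: SOXD and SOXE in cartilage, neural crest and glia, SOXF in endothelium and endoderm, SOXC in neuronal and mesenchymal progenitors, and the SOXB2 factor SOX21 in the nervous system. PRC2 methylates lysine 27 of histone H3 (H3K27me3), and many genes of developmental transcription factors carry this mark in hESCs, mostly at promoters rich in CG dinucleotides.

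Promoter windows of 300 bases, 250 before to 50 after an annotated start, were found in the RefSeq table on GRCh38.p14 for 4 of the 10 genes. All 4 genes with a window are shown, so their choice does not rest on their RNA. SOX5 and SOX6 rose together in the PRC2-null lines, whereas SOX4 and SOX21 did not pass the test against WT H1 there. SOX7, SOX9 and SOX18, which also rose, had no window. CG dinucleotides, which read the same on both strands, are in capitals.
SOX5, chr12:24562442-24562741, minus strand: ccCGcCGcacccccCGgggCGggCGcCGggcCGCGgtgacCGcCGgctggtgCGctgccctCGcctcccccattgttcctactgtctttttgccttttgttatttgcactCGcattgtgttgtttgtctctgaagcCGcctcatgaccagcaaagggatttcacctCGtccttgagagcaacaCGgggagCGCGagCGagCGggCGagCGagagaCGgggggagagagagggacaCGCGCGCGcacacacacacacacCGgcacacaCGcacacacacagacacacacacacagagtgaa
SOX6, chr11:16738428-16738727, minus strand: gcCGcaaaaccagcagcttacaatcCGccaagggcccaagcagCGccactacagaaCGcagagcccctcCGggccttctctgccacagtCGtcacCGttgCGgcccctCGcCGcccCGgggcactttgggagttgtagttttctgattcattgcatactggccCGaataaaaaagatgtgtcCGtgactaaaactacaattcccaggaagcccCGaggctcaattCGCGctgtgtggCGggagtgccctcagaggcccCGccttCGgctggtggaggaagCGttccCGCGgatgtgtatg
SOX4, chr6:21593501-21593800, plus strand: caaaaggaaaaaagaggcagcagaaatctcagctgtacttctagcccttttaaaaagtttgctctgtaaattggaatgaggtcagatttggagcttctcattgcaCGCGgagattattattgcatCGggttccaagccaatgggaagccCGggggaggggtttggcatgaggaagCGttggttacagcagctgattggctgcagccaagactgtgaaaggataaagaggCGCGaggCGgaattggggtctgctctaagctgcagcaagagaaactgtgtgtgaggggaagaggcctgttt
SOX21, chr13:94712496-94712795, minus strand: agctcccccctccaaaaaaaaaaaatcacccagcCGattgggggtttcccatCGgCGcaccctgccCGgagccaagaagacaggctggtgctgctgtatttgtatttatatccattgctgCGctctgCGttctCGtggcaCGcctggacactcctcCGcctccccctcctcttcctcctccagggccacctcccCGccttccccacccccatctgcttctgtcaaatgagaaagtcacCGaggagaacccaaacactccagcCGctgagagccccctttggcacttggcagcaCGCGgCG
The SOX5 window held 29 CG dinucleotides and the SOX6 window 22, against a median of 14 over 35116 windows. The SOX21 window held 15 and the SOX4 window 8. At least 1 CG was present in 96% of all windows, and at least as many as in the SOX5, SOX6, SOX21 and SOX4 windows in 24.2%, 37.7%, 48.9% and 60.7% of them. The SOX6 window is the most upstream of 5 in the table, and the other 4 held 0 to 2 CG dinucleotides. Any link of these counts with the changes in RNA was not tested.

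Levels are given in TPM, the share of a gene among all transcripts of a sample after correction for transcript length, and differences as log2 fold changes on the log2(TPM + 1) scale, which understates the change of genes with low levels. Calls of higher or lower needed a false discovery rate (FDR, the Benjamini-Hochberg adjusted p) of 1% or less together with a 3-fold change or more, in 1 limma fit over 19100 genes of the 12 samples without the transgene. The sequencing depth is unknown, and a TPM above 0 was listed for 19117 to 23012 genes per sample. Replicates of a line correlated over 21151 genes at Pearson's r from 0.947 in double knockout to 0.991 in WT H1 cells. The levels of the targeted genes do not check the labels of the knockout lines: EED TPM was 17.30 and 21.96 in WT H1 and 14.25 and 22.36 in EED-/- H1 cells, and SUZ12 TPM was 25.21 and 27.89 in WT H1 and 22.94 and 20.76 in SUZ12-/- H1 cells. EZH1 TPM was 13.71 and 14.29 in WT H1, 12.49 and 17.07 in EZH1-/- H1 and 9.37 and 6.78 in double knockout cells. EZH2 TPM was 54.55 and 58.89 in WT H1, 46.94 and 22.02 in EZH2-/- H1 and 31.28 and 20.03 in double knockout cells. In H1-EED-/-/EED-OE cells EED TPM was 108.54 with DOX and 12.64 to 31.56 without it.

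The labels call all samples hESCs, but pluripotency markers were low in the PRC2-null ones. The summed TPM of 7 pluripotency markers was 5285.8 to 6635.6 in the 6 PRC2-retaining samples and 172.65 to 513.49 in the 6 PRC2-null samples. POU5F1 TPM was 2428.15 to 3456.09 in the former and 3.62 to 149.79 in the latter. Markers of several other cell types were higher in the latter, but not those of blood. The sum of 3 endoderm markers was 0.36 to 0.75 against 108.48 to 203.01, with all 3 below a TPM of 1 in every PRC2-retaining sample, and the sum of 5 fibroblast or mesenchyme markers was 26.43 to 47.02 against 2476.3 to 20534. The sum of 3 endothelial markers was 32.07 to 133.39 against 39.75 to 434.61, where KDR was at 31.57 to 132.98 in the former, and PECAM1 and CDH5 were below 1 there. The sum of the 2 neural markers measured was 0.5 to 1.92 against 5.96 to 130.89. This came mostly from PAX6, at 0.24 to 0.7 against 5.66 to 128.76, since DCX overlapped at 0.2 to 1.23 against 0.3 to 3.3. The sum of 3 muscle markers was 6.84 to 45.36 against 148.79 to 896.15, from ACTC1 since MYOD1 and MYOG stayed below 1. That of 3 blood markers was 0.36 to 1.03 against 0.41 to 1.46. The part that these cell types had in the SOX values was not tested, and in bulk samples a change in the share of cells and a change in RNA per cell cannot be told apart.

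The 10 SOX genes took a larger share of all SOX transcripts in the PRC2-null lines. In the PRC2-retaining samples they made up 18.3% to 25.8% of the summed TPM of the 19 SOX genes, and SOX2 alone 38.1% to 47.3%. In the PRC2-null samples they made up 61.0% to 78.5%, and SOX2 2.1% to 8.2%. The groups did not overlap in either share. The summed TPM of the 10 genes was 56.99 to 119.65 in the former and 121.58 to 326.66 in the latter, whereas that of all 19 SOX genes was 312.13 to 463.93 and 197.92 to 415.96 and did overlap. In SUZ12-/- H1 cells the larger share came mostly with a lower total. The 10 genes summed to 121.95 and 121.58 there, against 105.91 and 93.96 in WT H1 cells. All 19 SOX genes summed to 199.85 and 197.92, against 427.46 and 461.80. SOX4 was the highest of the 10 in every one of the 19 samples. In WT H1 cells 6 of the 10 genes, SOX4, SOX8, SOX9, SOX10, SOX11 and SOX21, had a TPM of at least 1 in both samples, so not all of the 10 were silent in undifferentiated cells. In every PRC2-null sample 9 of the 10 did, all but SOX10.

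**Figure D1:**
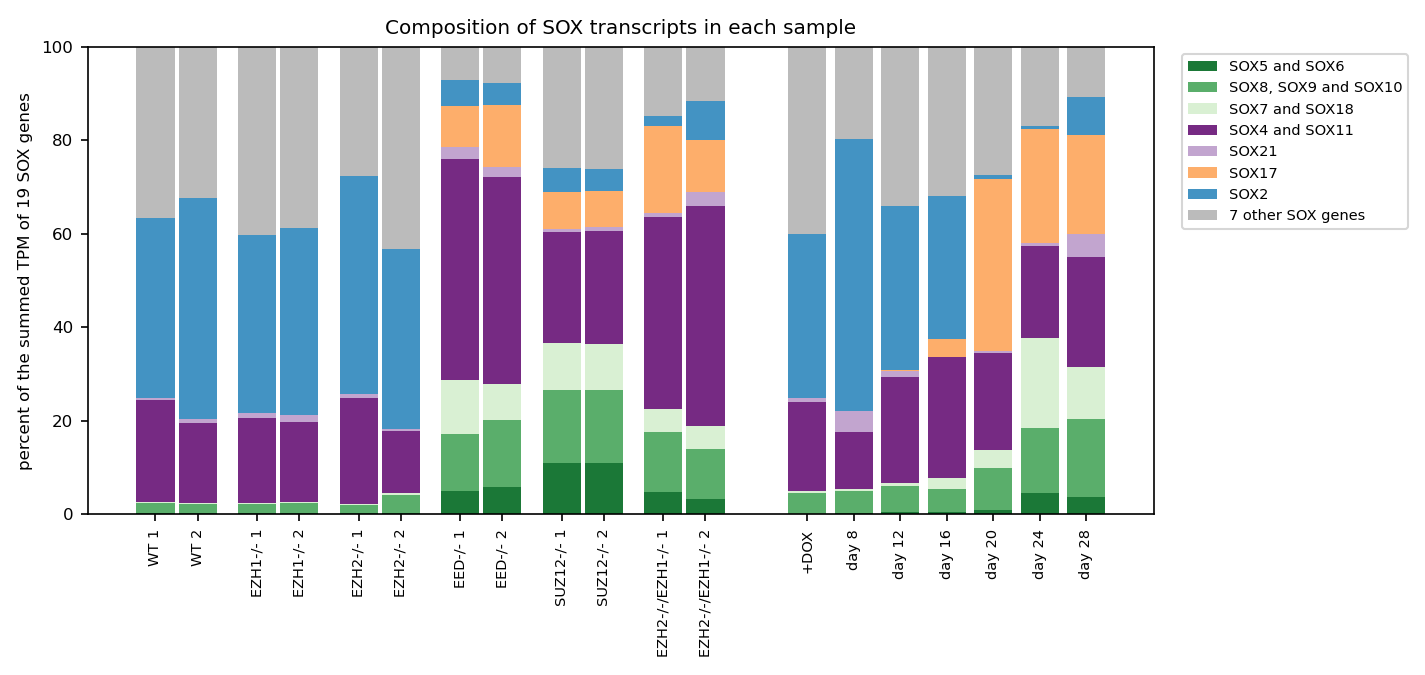
Share of the summed TPM of 19 SOX genes (y axis, percent) taken by subgroups of the 10 genes, SOX17, SOX2 and the 7 other SOX genes (colours) in each of the 19 samples (x axis). SOX2 takes 38.1% to 47.3% in the first 6 bars and 2.1% to 8.2% in the 6 PRC2-null bars.

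Compared with WT H1 cells, 5 of the 10 genes, SOX5, SOX6, SOX7, SOX9 and SOX18, were called higher in each of the 3 PRC2-null lines, and none was called lower. These comparisons share the WT H1 samples. In a limma fit of only the 4 samples compared, the double knockout kept SOX9 and SOX18 and lost SOX5 (adjusted p = 0.0168), SOX6 (adjusted p = 0.0144) and SOX7 (adjusted p = 0.0316). Over all genes 16.2% were called higher and 6.09% lower in EED-/- H1, 14.5% and 5.21% in SUZ12-/- H1, and 11.6% and 5.66% in double knockout cells. All 10 genes passed the filter on low values, a TPM of at least 1 in 2 of the 12 samples, and SOX6, SOX7 and SOX18 passed it only through the PRC2-null samples. The median log2 fold change of the 10 genes was 1.89, 1.46 and 1.40 in EED-/- H1, SUZ12-/- H1 and double knockout cells, beside 0.36, 0.22 and 0.19 over all genes. The 6 PRC2-null samples lay above the 6 others without overlap for the same 5 genes and below them for SOX10, where 24.2% of all genes lay above and 13.3% below.

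**Figure D2:**
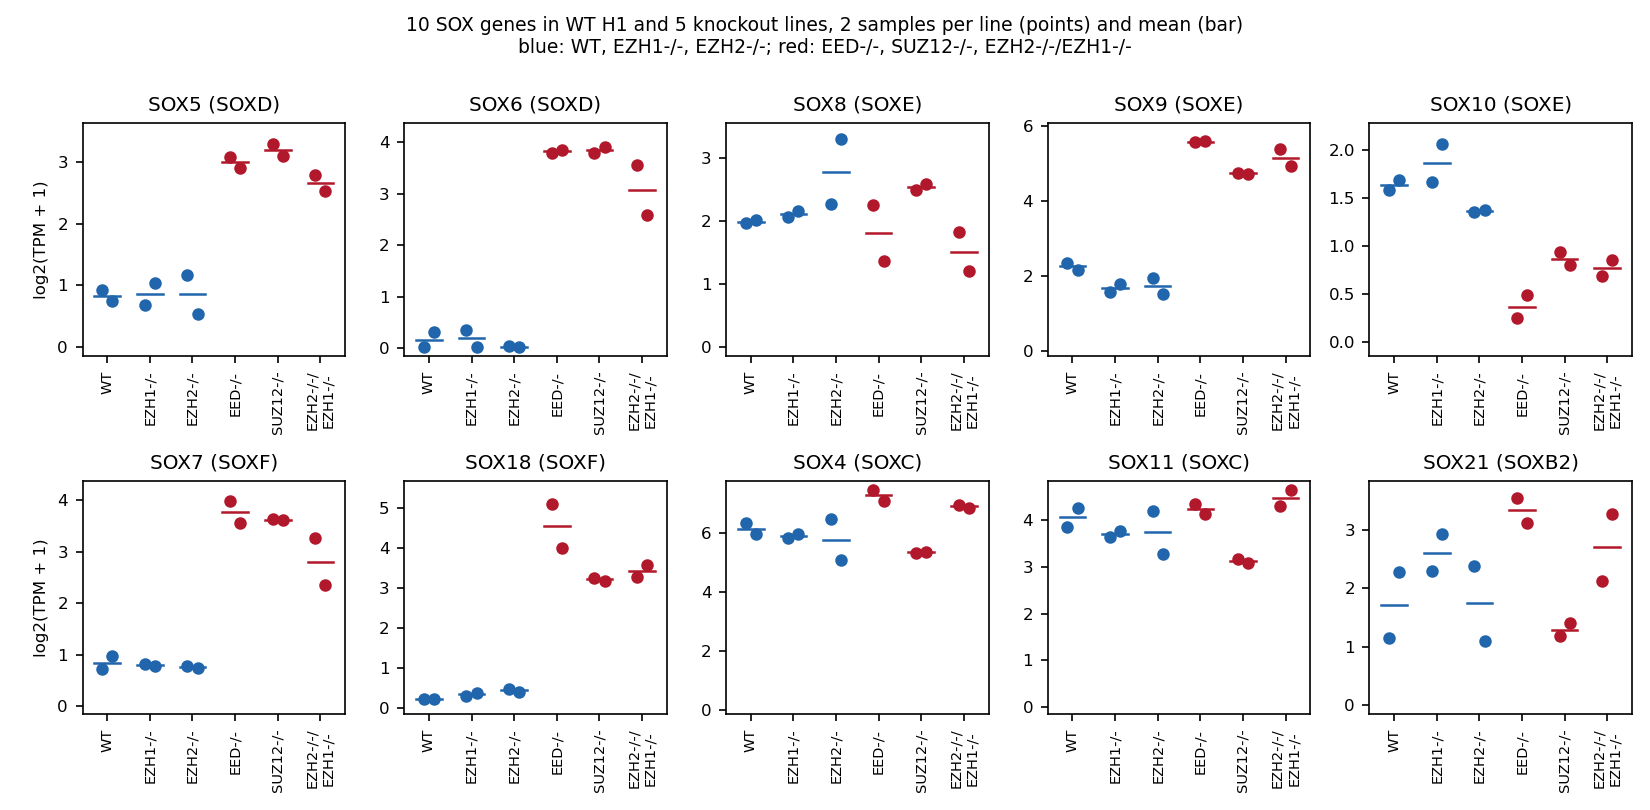
Level of each SOX gene (y axis, log2(TPM + 1), from 0 in each panel) in WT H1 and the 5 knockout lines (x axis), with 2 samples per line as points and their mean as a bar. SOX5, SOX6, SOX7, SOX9 and SOX18 are higher in all 6 PRC2-null samples (red) than in the 6 others (blue), and SOX10 is lower.

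SOX5 and SOX6 belong to the SOXD subgroup and act with SOX9 in cartilage cells. Gene positions are those of the GENCODE annotation on GRCh38. SOX5 (ENSG00000134532, chr12:23529504-24562544, minus strand) had a TPM of 0.90 and 0.67 in WT H1, 0.61 and 1.05 in EZH1-/- H1, and 1.24 and 0.45 in EZH2-/- H1 cells. It was at 7.48 and 6.44 in EED-/- H1, 8.82 and 7.51 in SUZ12-/- H1, and 5.88 and 4.74 in double knockout cells. The lowest PRC2-null sample was thus several times above the highest of the others. The log2 fold changes from WT H1 were 2.16 ± 0.29 (SE, adjusted p = 0.000141), 2.36 ± 0.29 (adjusted p = 8.42e-05) and 1.82 ± 0.29 (adjusted p = 0.000582) in the 3 lines in this order, from 2 samples per line.

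SOX6 (ENSG00000110693, chr11:15966449-16739591, minus strand) was close to 0 in undifferentiated cells, with a TPM of 0.02 and 0.24 in WT H1, 0.28 and 0.02 in EZH1-/- H1, and 0.03 and 0.02 in EZH2-/- H1 cells. It was at 12.81 and 13.48 in EED-/- H1, 12.90 and 13.98 in SUZ12-/- H1, and 10.77 and 5.02 in double knockout cells. EED-/- H1 and SUZ12-/- H1 cells had like levels, and the 2 double knockout samples lay apart from each other. The log2 fold changes from WT H1 were 3.65 ± 0.33 (SE, adjusted p = 7.68e-06), 3.68 ± 0.33 (adjusted p = 8.17e-06) and 2.90 ± 0.33 (adjusted p = 5.38e-05). C11orf58, which overlaps SOX6 on the opposite strand, was at 128.51 to 240.00 in the PRC2-null and 199.08 to 328.63 in the other samples.

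The SOXE factors SOX8, SOX9 and SOX10 are known from neural crest, glia, cartilage and gonads, and they did not change alike. SOX9 (ENSG00000125398, chr17:72121020-72126416, plus strand), which directs cartilage formation and is also used in endoderm-derived progenitors, had a TPM of 4.04 and 3.48 in WT H1, 1.98 and 2.45 in EZH1-/- H1, and 2.81 and 1.85 in EZH2-/- H1 cells. It was at 46.71 and 47.07 in EED-/- H1, 25.89 and 25.50 in SUZ12-/- H1, and 40.46 and 29.32 in double knockout cells, which made it the second highest of the 10 genes there. The log2 fold changes from WT H1 were 3.33 ± 0.26 (SE, adjusted p = 2.98e-06), 2.49 ± 0.26 (adjusted p = 2.24e-05) and 2.90 ± 0.26 (adjusted p = 1.12e-05). Its antisense gene SOX9-AS1 ranged from 1.39 to 5.08 in the PRC2-null and 0 to 1.12 in the other samples.

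SOX10 (ENSG00000100146, chr22:37970686-37987422, minus strand), the factor of glia and melanocytes, was low throughout and lowest in the PRC2-null lines. Its TPM was 2.01 and 2.22 in WT H1, 2.18 and 3.19 in EZH1-/- H1, and 1.57 and 1.59 in EZH2-/- H1 cells. It was 0.19 and 0.40 in EED-/- H1, 0.92 and 0.74 in SUZ12-/- H1, and 0.61 and 0.81 in double knockout cells, without overlap between the 6 and 6 samples. The log2 fold change from WT H1 was -1.27 ± 0.25 (SE, adjusted p = 0.00145) in EED-/- H1 cells, which met the limit on the adjusted p but not that on the fold. It was -0.77 ± 0.25 (adjusted p = 0.0247) in SUZ12-/- H1 and -0.87 ± 0.25 (adjusted p = 0.0152) in double knockout cells, which were not called. With a pseudocount of 0.1 in place of 1 the value in EED-/- H1 cells was -2.54 (adjusted p = 0.00125), which passed both limits. POLR2F, a gene on the opposite strand that overlaps SOX10, ranged from 85.91 to 182.61 in the PRC2-null and 181.00 to 245.94 in the other samples, and its part in the SOX10 values was not tested.

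SOX8 (ENSG00000005513, chr16:981770-986979, plus strand) showed no order between the groups. Its TPM was 2.92 and 3.04 in WT H1, 3.17 and 3.49 in EZH1-/- H1, 3.82 and 8.90 in EZH2-/- H1, 3.79 and 1.58 in EED-/- H1, 4.67 and 5.05 in SUZ12-/- H1, and 2.55 and 1.30 in double knockout cells. The highest and the lowest samples both came from pairs that lay far apart, and the adjusted p against WT H1 was 0.280 to 0.962.

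SOX7 and SOX18 are SOXF factors, which together with SOX17 act in the formation of blood vessels. SOX7 (ENSG00000171056) had a TPM of 0.65 and 0.96 in WT H1, 0.77 and 0.73 in EZH1-/- H1, and 0.72 and 0.67 in EZH2-/- H1 cells. It was at 14.82 and 10.75 in EED-/- H1, 11.42 and 11.28 in SUZ12-/- H1, and 8.60 and 4.09 in double knockout cells. All 6 PRC2-null samples were above all others, with the double knockout lowest among them. The log2 fold changes from WT H1 were 2.92 ± 0.32 (SE, adjusted p = 3.34e-05), 2.78 ± 0.32 (adjusted p = 5.26e-05) and 1.96 ± 0.32 (adjusted p = 0.000676). A gene annotated as PINX1 (CTD-2135J3.4 in the data) that overlaps SOX7 on the same strand was listed at a TPM of 0 in the PRC2-null and at 0 to 0.96 in the other samples. The call in the double knockout rested on single libraries: the adjusted p was 0.0101 without the first WT H1 sample, and the log2 fold change was 1.50 without the first double knockout sample.

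SOX18 (ENSG00000203883, chr20:64047582-64049639, minus strand), a factor of blood and lymphatic vessels, had the largest log2 fold change of the 10 genes in EED-/- H1 and in double knockout cells. Its TPM was 0.18 and 0.18 in WT H1, 0.24 and 0.30 in EZH1-/- H1, and 0.40 and 0.33 in EZH2-/- H1 cells. It was 33.29 and 15.02 in EED-/- H1, 8.64 and 8.14 in SUZ12-/- H1, and 8.68 and 10.95 in double knockout cells. Both EED-/- H1 samples lay above the samples of the other PRC2-null lines. The log2 fold changes from WT H1 were 4.31 ± 0.34 (SE, adjusted p = 3.36e-06), 2.99 ± 0.34 (adjusted p = 4.36e-05) and 3.19 ± 0.34 (adjusted p = 3.63e-05).

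SOX4 and SOX11, the SOXC factors, were expressed in every line, and neither was called against WT H1. SOX4 (ENSG00000124766, chr6:21593751-21598619, plus strand), which acts in many progenitors and in cells that lose epithelial character, had a TPM of 80.36 and 60.94 in WT H1, 55.42 and 61.93 in EZH1-/- H1, and 87.33 and 33.24 in EZH2-/- H1 cells. It was 177.53 and 134.91 in EED-/- H1, 39.39 and 40.20 in SUZ12-/- H1, and 122.38 and 115.75 in double knockout cells. EED-/- H1 and double knockout samples lay above all others and SUZ12-/- H1 samples below both WT H1 samples. The log2 fold change from WT H1 was 1.13 ± 0.35 (SE, adjusted p = 0.0204) in EED-/- H1, -0.80 ± 0.35 (adjusted p = 0.0866) in SUZ12-/- H1 and 0.76 ± 0.35 (adjusted p = 0.106) in double knockout cells.

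SOX11 (ENSG00000176887, chr2:5692384-5701385, plus strand), known from immature neurons, had a TPM of 13.61 and 18.38 in WT H1, 11.47 and 12.65 in EZH1-/- H1, and 17.52 and 8.79 in EZH2-/- H1 cells. It was 19.41 and 16.57 in EED-/- H1, 8.04 and 7.54 in SUZ12-/- H1, and 18.97 and 24.22 in double knockout cells. The SUZ12-/- H1 samples were the lowest of all 12. The adjusted p against WT H1 was 0.674, 0.029 and 0.304 in the 3 PRC2-null lines.

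SOX21 (ENSG00000125285, chr13:94709622-94712545, minus strand) counters SOXB1 factors in neural cells. Its TPM was 1.22 and 3.85 in WT H1, 3.89 and 6.57 in EZH1-/- H1, 4.21 and 1.15 in EZH2-/- H1, 10.63 and 7.69 in EED-/- H1, 1.26 and 1.64 in SUZ12-/- H1, and 3.37 and 8.66 in double knockout cells. Both EED-/- H1 samples lay above both WT H1 samples, while the ranges of most lines overlapped. The log2 fold change from WT H1 in EED-/- H1 cells was 1.62 ± 0.53 (SE, adjusted p = 0.0253) and was not called.

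**Figure D3:**
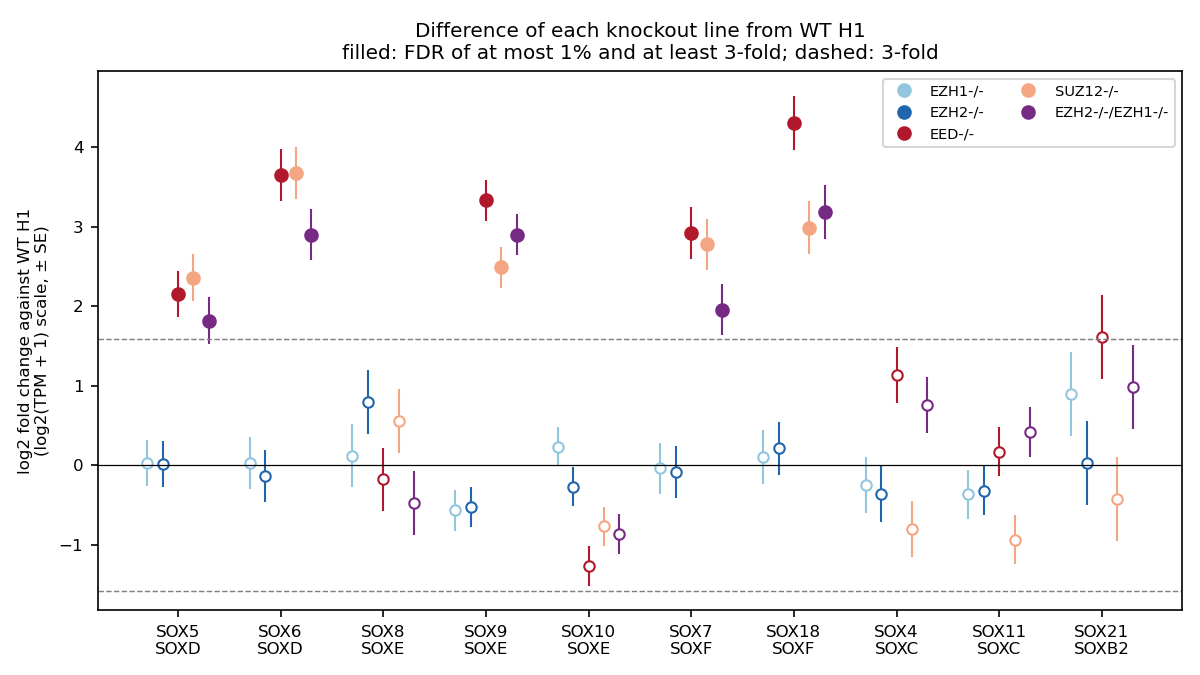
Log2 fold change against WT H1 (y axis, log2(TPM + 1) scale, ± SE of the limma fit) of the 10 SOX genes (x axis, with subgroup) in the 5 knockout lines (colours). Filled points, which passed an FDR of 1% and the 3-fold limit (dashed), are those of SOX5, SOX6, SOX9, SOX7 and SOX18 in the 3 PRC2-null lines, with values from 1.82 to 4.31.

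In EZH1-/- H1 and EZH2-/- H1 cells none of the 10 genes was called in the limma fit, where 0.0995% of all genes were called for loss of EZH1 and 0% for loss of EZH2. At an unadjusted p under 0.05, 1 of the 10 genes (SOX9) and 3058 of 19100 genes passed for loss of EZH1, and 0 of the 10 and 1110 genes for loss of EZH2. The log2 fold changes of the 10 genes ranged from -0.57 to 0.89 and from -0.53 to 0.80. SOX9 was below both WT H1 samples in all 4 of these samples, at -0.57 ± 0.26 (SE, adjusted p = 0.312) and -0.53 ± 0.26 (adjusted p = 0.903).

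Between the PRC2-null lines, SOX4 was the only one of the 10 genes that was called. It was lower in SUZ12-/- H1 than in EED-/- H1 cells at -1.93 ± 0.35 on the log2 scale (SE, adjusted p = 0.00337), in a comparison where 6.12% of all genes were called. This call was lost without any 1 of the 4 samples compared, with an adjusted p of 0.0418 and 0.0129 without the first and the second EED-/- H1 sample and 0.0335 and 0.0318 without the first and the second SUZ12-/- H1 sample. SOX9 (-0.84 ± 0.26, SE, adjusted p = 0.0421), SOX11 (-1.11 ± 0.31, adjusted p = 0.0301), SOX18 (-1.32 ± 0.34, adjusted p = 0.0201) and SOX21 (-2.04 ± 0.53, adjusted p = 0.0209) had lower estimates in SUZ12-/- H1 than in EED-/- H1 cells that missed the 1% limit. SOX18 passed it without the second EED-/- H1 sample, at -1.87 (adjusted p = 0.00256). Between double knockout and EED-/- H1 cells none of the 10 was called, beside 0.089% of all genes, and 3 of the 10 had an unadjusted p under 0.05, as did 3831 of all 19100 genes. None was called between SUZ12-/- H1 and double knockout cells, beside 4.46% of all genes, where 6 of the 10 and 5438 of all genes had an unadjusted p under 0.05 and SOX4 was at -1.56 ± 0.35 (adjusted p = 0.0142).

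In H1-EED-/-/EED-OE cells with DOX, all of the 5 genes called higher in the PRC2-null lines were low, as in WT H1 cells, and at day 28 they lay within or above the range of the 6 PRC2-null samples. Single days have 1 sample and were not tested. At day 8, 2 of the 10 genes, SOX9 and SOX21, were at least 3-fold above the sample with DOX and none was as far below it, where 2.93% of all 17245 genes were above and 0.603% below. At day 28, 6 of the 10, SOX5, SOX6, SOX7, SOX9, SOX18 and SOX21, were at least 3-fold above it and none below, where 18.8% of all genes were above and 6.11% below. Days 8 and 28 share the same sample with DOX.

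**Figure D4:**
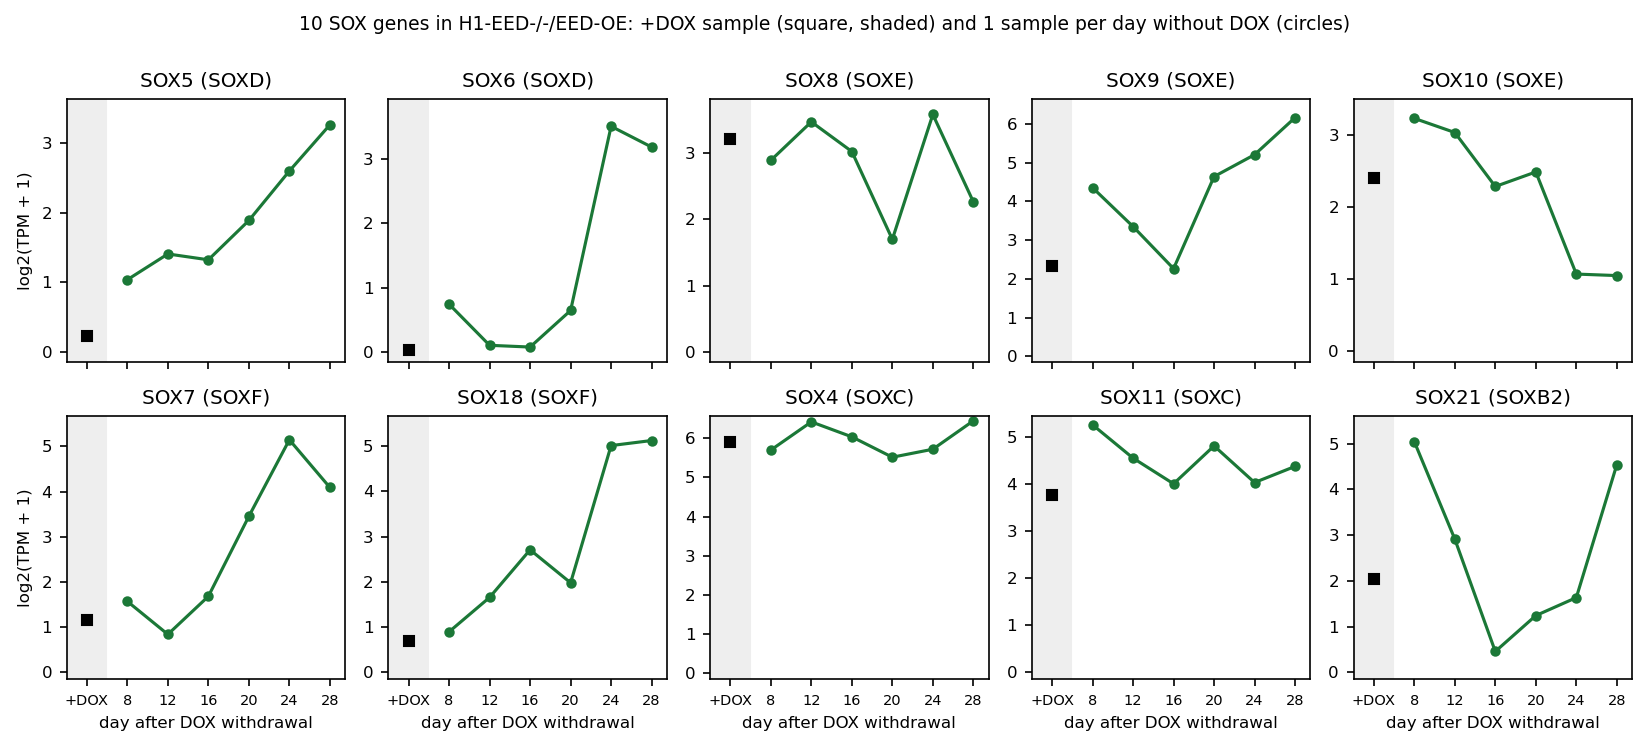
Level of each SOX gene (y axis, log2(TPM + 1), from 0 in each panel) in H1-EED-/-/EED-OE cells with DOX (square on grey) and by day after DOX withdrawal (x axis, circles), with 1 sample per point. SOX5, SOX6, SOX7 and SOX18 are highest at days 24 and 28, SOX9 and SOX21 have a peak at day 8 and another at day 28, and SOX10 is lowest at days 24 and 28.

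SOX5 had a TPM of 0.17 with DOX and of 1.05, 1.65, 1.50, 2.70, 5.06 and 8.60 at days 8, 12, 16, 20, 24 and 28. It was above the sample with DOX on every day and highest on the last. SOX6 was at 0.03 with DOX and at 0.68, 0.08, 0.06, 0.57, 10.36 and 8.09. Its level lay below 1 up to day 20 and within the range of the PRC2-null lines at days 24 and 28.

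SOX7 was at 1.24 with DOX and at 1.97, 0.79, 2.21, 9.96, 34.47 and 16.06 on these days. Its level at day 24 was above that of all 6 PRC2-null samples, the highest of which was 14.82. SOX18 was at 0.61 with DOX and at 0.86, 2.15, 5.53, 2.94, 31.24 and 33.84, with its main step between days 20 and 24. SOX17, the third SOXF gene, which also marks endoderm and is not one of the 10, was at 0.10 with DOX and at 0.68, 1.10, 11.62, 126.35, 83.34 and 95.70, so its largest step lay between days 16 and 20.

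SOX9 was at 4.04 with DOX and at 19.43, 9.19, 3.80, 23.91, 35.86 and 70.52. It was high at day 8, back at the level with DOX at day 16 and highest at day 28. SOX10 was at 4.28 with DOX and at 8.37, 7.18, 3.87, 4.60, 1.10 and 1.07, with its lowest levels where SOX9 was highest. SOX8 was at 8.17 with DOX and between 2.24 and 10.90 without it, in no order of days.

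SOX21 was at 3.09 with DOX and at 31.99, 6.53, 0.37, 1.36, 2.10 and 22.25, with its level at day 8 well above the highest of the 12 samples without the transgene, 10.63. Its antisense neighbour SOX21-AS1 followed it, with 1.64 with DOX, 7.59 at day 8, 0.63 at day 16 and 6.97 at day 28. The neural SOX genes SOX1 and SOX2 were also highest at day 8, where SOX1 was at 9.04 and SOX2 at 417.44, against 0.40 and 131.44 with DOX. SOX2 was at 2.48 at day 20 and 35.92 at day 28. SOX11 was highest at day 8 too, at 37.02 against 12.61 with DOX, and between 14.96 and 26.88 on the other days. SOX4 was at 59.18 with DOX and between 44.69 and 86.01 without it. In share of all SOX transcripts, the 10 genes made up 24.9% with DOX, 22.1% at day 8 and 60.0% at day 28, and SOX2 35.0%, 58.1% and 8.0%.

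As a linear trend over days 8 to 28, fitted with limma to 6 samples and 17245 genes, none of the 10 genes passed the limits, where 1.35% of all genes were called higher and 0.661% lower. At an unadjusted p under 0.05, 5 of the 10 and 6345 of all genes passed. The fitted log2 changes from day 8 to day 28 were 4.35 ± 0.78 (SE, adjusted p = 0.0144) for SOX18, 3.90 ± 0.90 (adjusted p = 0.0271) for SOX7, 3.28 ± 1.01 (adjusted p = 0.0574) for SOX6, 2.43 ± 1.04 (adjusted p = 0.137) for SOX9, 2.18 ± 0.48 (adjusted p = 0.024) for SOX5 and -2.37 ± 0.51 (adjusted p = 0.0224) for SOX10. SOX5 passed with the DOX sample entered as day 0 (2.03, adjusted p = 0.00991), and SOX18 passed without day 20 (4.59, adjusted p = 0.00603). SOX21, with a low in the middle of the course, had a fitted change of -0.80 ± 1.83 (adjusted p = 0.787).

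Over all 19 samples the 5 genes that rose varied together. Pearson's r of log2(TPM + 1) among SOX5, SOX6, SOX7, SOX9 and SOX18 was 0.87 to 0.94, and r of SOX10 with them was -0.76 (SOX6), -0.68 (SOX5), -0.61 (SOX18), -0.57 (SOX7) and -0.47 (SOX9). These are descriptions, since the samples fall into differentiated and undifferentiated groups. The 5 genes were also grouped by their shared rise in the PRC2-null samples, so a high r among them follows in part from that choice. Among 15533 genes, those most like SOX6 were LOX (r = 0.993), WISP1 (0.991) and COL1A1 (0.987), all 3 of connective tissue, where LOX crosslinks collagen and COL1A1 encodes a chain of it. Those most like SOX18 were FLI1 (0.960), an ETS factor of endothelial and blood cells, TICAM1 (0.957) and FLRT2 (0.957). SOX7 was closest to SP6 (0.975), HOXD4 (0.969) and HEY1 (0.965), SOX5 to MAGI2-AS3 (0.985), KIFAP3 (0.978) and TMEM263 (0.974), and SOX9 to PPP1R9B (0.967), CD99 (0.964) and SEC31A (0.964). SOX10 was closest to P2RX2 (0.946), AC010883.5 (0.946) and ENO2 (0.936), and SOX21 to SOX21-AS1 (0.897), HTR1D (0.826) and RP11-396O20.1 (0.783). For SOX4, SOX8 and SOX11 the closest gene reached only 0.876 (PIK3AP1), 0.766 (USP21) and 0.789 (FEZ1).

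Genes known to work with each subgroup were counted from lists, beside the background shares of genes called that are given above. Of 12 cartilage matrix genes, which SOX9 acts on with SOX5 and SOX6, 6 were called higher without EED, 7 without SUZ12 and 6 in double knockout cells, and none lower, with medians of 1.47, 1.96 and 1.43. HAPLN1, a link protein of cartilage, had a TPM of 0.93 to 7.12 in the 6 PRC2-retaining samples and of 61.24 to 376.92 in the PRC2-null samples. The fibrillar collagen genes COL11A1 and COL2A1 rose in all 3 lines as well, from 5.18 to 14.19 up to 118.08 to 701.21 and from 1.85 to 7.92 up to 33.23 to 274.51. ACAN, the large proteoglycan of cartilage, was at 0.59 to 2.13 and 0.40 to 2.80, and COL9A1, a collagen of cartilage fibrils, was at 9.05 to 14.38 and 3.19 to 7.94, lower without overlap but not called in any of the 3 lines. Over the withdrawal days COL9A1 was called lower, from 25.52 at day 8 to 1.01 at day 28. MATN3, another matrix gene, was called higher, and the rest of the 11 listed genes in that fit were not called. The median fitted log2 change of the 11 from day 8 to day 28 was 1.11.

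Of 18 endothelial genes, a setting of SOX7 and SOX18, 13 were called higher without EED, 10 without SUZ12 and 10 in double knockout cells, 9 of them in all 3 lines, and none lower. The medians were 3.10, 2.31 and 1.93. ESAM and PECAM1, adhesion proteins of endothelial junctions, were at 0 to 1.28 and 0 to 0.37 in the PRC2-retaining samples and at 24.34 to 96.35 and 13.17 to 153.49 in the PRC2-null samples. Of the 18, 7 were called lower in SUZ12-/- H1 than in EED-/- H1 cells and none higher, where SOX18 itself was not called. ETV2, an early factor of the lineage, was at 1.11 to 2.87 and 0.61 to 4.30.

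Of 20 neural crest, melanocyte and Schwann cell genes, 16 passed the filter, and 8 were called higher and 4 lower without EED, 9 and 2 without SUZ12, and 8 and 2 in double knockout cells. MSX1, TWIST1, MSX2 and SNAI2, early factors that mesenchyme also uses, rose in each line, with TWIST1 at 0.14 to 2.72 before and 14.74 to 54.70 after. Those called lower in each line included FOXD3, an early crest factor that pluripotent cells also express. The melanocyte genes TYR and DCT were listed at 0 to 0.56 and 0 to 0.29 in all of the 12 samples.

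Of 13 neuronal genes with 1 identifier, 9 passed the filter, and 4, 7 and 3 were called higher in EED-/- H1, SUZ12-/- H1 and double knockout cells and none lower, with medians of 1.23, 2.32 and 1.38. STMN2, PAX6 and NCAM1 rose in all 3 lines, PAX6 from 0.24 to 0.70 up to 5.66 to 128.76, whereas the neurogenic factors NEUROG1 and NEUROG2 stayed below a TPM of 1 in all of these samples. All 10 endoderm genes of a further list were called higher in all 3 lines, with medians of 4.91, 4.77 and 4.79.

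Among the 9 SOX genes outside the 10, 7 passed the filter. SOX17 was the only one called higher in all 3 PRC2-null lines, from 0 to 0.06 up to 15.45 to 64.07. SOX2, SOX3 and SOX13 were called lower in all 3, SOX2 from 119.87 to 218.65 down to 7.09 to 24.47 and SOX3, another SOXB1 gene, from 8.72 to 18.44 down to 0.09 to 1.45. SOX13, the third SOXD gene beside SOX5 and SOX6, went from 77.34 to 109.72 down to 6.05 to 24.98, opposite to both. Of the 4 antisense or neighbouring transcripts matched by symbol, LMF1, which shares no base with its neighbour SOX8, was called higher in all 3 lines, and SOX9-AS1, SOX21-AS1 and POLR2F were not called. Over the withdrawal days SOX3 was the only other SOX gene with a called trend, at -4.54 ± 0.66 (SE, adjusted p = 0.00954).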

How the data were processed

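RNA-seq of 19 samples was analysed from per-sample tables of 33382 genes. As the labels and the study's methods state it, the authors made TruSeq mRNA libraries and estimated the deposited TPM values with RSEM and Bowtie 2 against GRCh38. The labels also name hg19 among the genome builds. Strand use in counting is not given in the sources used here. TPM holds no depth, so the count test named in the study's methods was replaced by limma at the study's thresholds (1% FDR, 3-fold). The tables were joined by Ensembl identifier, since 33 identifiers carried symbols that differed between files, and no pair of samples held identical values.

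Values were taken as log2(TPM + 1). One limma fit (limma 3.58.1, R 4.3.3, trended and robust eBayes, 6 residual degrees of freedom) gave each line a mean over the 12 samples without the transgene. It held the 19100 genes that reached a TPM of 1 in 2 or more of them. The withdrawal days were fitted as a linear trend over 6 samples (17245 genes, 4 residual degrees of freedom), and single days were compared with the sample with DOX by fold only. The code was tested on simulated data. Tables and figures were made with Python 3.11.15, numpy 2.4.6, pandas 2.3.3 and matplotlib 3.10.9. Gene positions came from GENCODE and promoter windows from RefSeq.

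All 10 SOX genes and the targeted genes are named. So are the 3 genes closest to each SOX gene by Pearson's r among genes that reached a TPM of 5 in any sample (for SOX4, SOX8 and SOX11 only the closest), and up to 4 called genes per list with the largest mean change in the PRC2-null lines. Other genes, such as ACAN, COL9A1, MATN3, ETV2, FOXD3, TYR, DCT, NEUROG1, NEUROG2, SOX1, KDR and DCX, were named after their values were seen, and some listed genes are not reported by name here. The SOX genes and all lists were chosen with earlier results of these data known. Alternatives were another pseudocount, filter, scaling, eBayes setting, threshold, a fit of only the samples compared, a replicate block, the sample with DOX as day 0 or WT H1 as reference, and leaving out each sample.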

Additional observations from a re-analysis of the deposited data

Results flagged for a closer look

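SOX4 differed between PRC2-null lines. The log2 fold change of SUZ12-/- H1 against EED-/- H1 cells was -1.93 ± 0.35 (SE of the limma fit), which is 3.82-fold lower, and both SUZ12-/- H1 samples (TPM 39.39 and 40.20) lay below both EED-/- H1 samples (177.53 and 134.91). The difference itself was tested, with an adjusted p of 0.00337, and against WT H1 cells the estimates had opposite signs and neither was called. The call was lost without any 1 of these 4 samples, with limma adjusted p from 0.0129 (without the second EED-/- H1 sample) to 0.0418 (without the first).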

How the results depend on the processing

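Of the effects of single SOX genes, the 34 that were called, large or without overlap were recomputed under the alternatives other than the looser threshold. The other 56, which were not called and could most easily change sign, were not recomputed. These were not all near 0, and the largest was 1.04 on the log2 scale (SOX8 in SUZ12-/- H1 against double knockout cells). Of the 564 values that the recomputed effects gave, 551 kept their side of the thresholds, 9 lost a call, 4 gained one and none changed direction. The 5 SOX genes called higher in EED-/- H1 and in SUZ12-/- H1 cells stayed called in all of these. Scaling by median ratios moved single samples by -0.23 to 0.29 on the log2 scale. The cause of the changes below was not tested, other than that some fits had fewer samples. Depth is unknown, and genes with a TPM near 1 depend most on the pseudocount.

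At an FDR of 5% with no fold limit, the calls against WT H1 were 9774 genes in EED-/- H1, 8962 in SUZ12-/- H1, 8459 in double knockout, 203 for loss of EZH1 and 12 for loss of EZH2. Between PRC2-null lines they were 3736 (SUZ12-/- H1 against EED-/- H1), 152 (double knockout against EED-/- H1) and 2728 (SUZ12-/- H1 against double knockout). Of the 10 SOX genes, 8 were called in EED-/- H1 cells, 5 in SUZ12-/- H1 against EED-/- H1 and 2 in SUZ12-/- H1 against double knockout cells. Fits of only the 4 samples compared called 1107 genes in double knockout and 0 in EZH1-/- H1 cells, and 673, 0 and 3 between PRC2-null lines in the order above. In the double knockout this left 2 SOX genes called, SOX9 and SOX18, with limma adjusted p of 0.0168 for SOX5, 0.0144 for SOX6 and 0.0316 for SOX7.

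In EZH1-/- H1 cells, where 19 genes were called, there were 7 with a pseudocount of 0.1, 10 with median-ratio scaling and 7 with plain eBayes. In EZH2-/- H1 cells, where 0 were called, there were 2 with no filter, 2 with median-ratio scaling and 2 with plain eBayes. In double knockout against EED-/- H1 cells, where 17 were called, there were 8 with a pseudocount of 0.1 and 1 with no filter. The trend over days, with 347 genes, had 1 with no filter and 86 with median-ratio scaling, and 1 SOX gene (SOX5) with the DOX sample as day 0. At day 8, a pseudocount of 0.1 put 1976 genes and 4 of the 10 SOX genes at least 3-fold from the sample with DOX.

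Leaving out 1 sample at a time gave 0 to 42 genes for loss of EZH1, 0 to 9 for loss of EZH2, 384 to 1330 in SUZ12-/- H1 against EED-/- H1, 1 to 737 in double knockout against EED-/- H1 and 223 to 1663 in SUZ12-/- H1 against double knockout cells. The lowest value came without the first SUZ12-/- H1 sample in both SUZ12-/- H1 comparisons, and the highest without the first double knockout sample in all 3, and in the first of them also without the second. SOX genes called in SUZ12-/- H1 against EED-/- H1 cells numbered 0 to 1. The trend kept 0 genes without day 8 and 374 without day 20, with 0 to 1 SOX genes.

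Replicate numbers only name samples here. With the replicate block, 10 genes were called in EZH1-/- H1 and 9 in double knockout against EED-/- H1 cells, and the number of SOX genes called did not change in any comparison. Deviations of samples with the same number correlated at -0.12 to 0.22 (mean -0.0027) over 15 pairs of lines.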
